A study of Mus musculus with 21 samples.

Results

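RNA of monocyte-derived cells from obese adipose tissue was compared with RNA of MHCII-low macrophages from obese adipose tissue, across all expressed genes. The comparison takes 6 of the 21 libraries of the study, 3 for each population, and pairs them by the number 1 to 3 that their titles carry. Both groups came from male C57BL/6 mice kept on the high fat diet for 16 weeks, with no transgene, allele or agent named in the labels. The adipose depot is not named there. Tissue was digested with collagenase and the populations were separated on a cell sorter. RNA was taken with a PicoPure kit, and a NuGen Ovation kit for mouse RNA was used for sequencing libraries. The titles call the monocyte-derived gate P3, and the labels do not give the surface markers of that gate. Nor do they say that the numbered libraries came from separate animals, so p-values here measure the spread between these samples, which may be technical. The other libraries are CD11c-negative and CD11c-positive macrophages of obese mice and 3 populations of lean male C57BL/6 mice on the normal diet for 16 weeks. The other obese libraries also enter the fit of the comparison, in its block by number and its estimate of spread. All 21 libraries enter the scaling. Otherwise they enter only where the comparison is set beside them.

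Adipose tissue holds resident macrophages, which clear dying cells, iron and lipid, and a changing pool of cells that arrive from blood as monocytes. Resident macrophages of many tissues carry scavenger receptors such as Lyve1 and Cd163 and little MHC class II. Monocytes that enter tissue can take on macrophage or antigen-presenting features, and dendritic cells, defined by Flt3, Zbtb46 and Ccr7, take antigen to lymph nodes and show it to T cells on MHC class II. In RNA from sorted bulk populations, fewer cells of a type and less RNA per cell cannot be told apart.

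The class II genes are shown first, because the macrophages were sorted by their low MHC class II and because their promoters share letters that a script can find. Class II genes are switched on together by the co-activator Ciita, which acts through a conserved promoter module that includes the Y box, an inverted CCAAT box. Of the 11 class II presentation genes of the list used here, 8 had an entry in the RefSeq promoter table for GRCm38.p6, with 9 entries of 250 bases before to 50 bases after a start, and H2-Ab1, Cd74 and Ciita had none. ATTGG on the strand of the gene was found in 8 of the 9 entries and in at least 1 entry of each of the 8 genes. Among 32851 entries of the same length, 7249 (22.1%) held ATTGG on the strand of the gene and 12289 (37.4%) held ATTGG or CCAAT, its reverse complement. The match began 43 to 100 bases before the start in the 7 promoters printed here, each as the 120 bases from 140 to 21 bases before the start, 5′ to 3′ on the strand of the gene, with ATTGG in capitals. In windows of that length and place 7 of the 8 genes and 3898 of the 32851 entries (11.9%) held it. In H2-DMa, the other gene, the match lay outside this window, 198 bases before the start of its second entry. A match is a description of letters and not a measured site.
H2-Aa, minus strand, chr17:34287844-34287963: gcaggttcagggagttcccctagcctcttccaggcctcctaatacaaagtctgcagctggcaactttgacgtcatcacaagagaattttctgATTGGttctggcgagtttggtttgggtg
H2-Eb1, plus strand, chr17:34305727-34305846: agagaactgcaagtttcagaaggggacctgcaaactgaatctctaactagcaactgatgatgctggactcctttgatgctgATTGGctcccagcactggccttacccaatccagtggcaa
H2-Eb2, plus strand, chr17:34325535-34325654: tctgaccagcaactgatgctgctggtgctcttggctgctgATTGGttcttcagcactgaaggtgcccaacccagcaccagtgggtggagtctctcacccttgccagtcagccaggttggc
H2-DMb1, plus strand, chr17:34153051-34153170: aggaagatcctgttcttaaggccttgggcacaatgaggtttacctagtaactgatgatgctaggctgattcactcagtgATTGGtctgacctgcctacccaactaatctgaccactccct
H2-DMb2, plus strand, chr17:34145109-34145228: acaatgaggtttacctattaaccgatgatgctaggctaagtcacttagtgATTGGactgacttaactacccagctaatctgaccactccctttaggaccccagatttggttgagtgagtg
H2-Oa, plus strand, chr17:34092239-34092358: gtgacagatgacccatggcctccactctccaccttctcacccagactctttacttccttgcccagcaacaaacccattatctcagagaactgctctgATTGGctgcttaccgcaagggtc
H2-Ob, plus strand, chr17:34238765-34238884: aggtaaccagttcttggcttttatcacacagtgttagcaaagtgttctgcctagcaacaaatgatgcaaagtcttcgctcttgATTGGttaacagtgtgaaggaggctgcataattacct

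The 3 numbered pairs were fitted with edgeR's quasi-likelihood model over the 12 obese libraries, with the number as a block, and a gene was called where its Benjamini-Hochberg adjusted p was under 0.05. A log2 fold change is monocyte-derived minus MHCII-low, given with its standard error (SE), and levels are CPM, the counts of a gene scaled to the total of its library, with TMM factors, in the order of libraries 1 to 3, monocyte-derived first. Of 20081 genes tested, 10739 (53.5%) were called, 4891 higher (24.4%) and 5848 lower (29.1%) in monocyte-derived cells, with a median log2 fold change of -0.01. The libraries of the groups did not overlap for 10799 genes (53.8%). Among the 8769 genes that reached 10 CPM on average in one of the groups, 6081 (69.3%) were called, 2484 higher (28.3%) and 3597 lower (41.0%), with a median of -0.09. A change of at least 1 on the log2 scale was called for 2100 higher and 2291 lower genes in all, and for 576 higher and 1034 lower genes of 10 CPM or more. Since most of the abundant genes were called, the share called in a list is read against these percentages. Library totals were 20871699 to 25642197 counts in monocyte-derived cells and 30083259 to 35568948 in MHCII-low macrophages. Protein-coding genes took 76.9 to 79.9% of the former and 81.4 to 83.9% of the latter. Nothing in the sources says whether counting used the strand, so reads of Wnt11, Fcna, Gas6, H2-DMa, Cbfa2t3, Bcl11a, Napsa, Dab2, Glul, Cd274, Tnfsf9, Tap1, Fcgr2b, Ly75, Ctsl, Grn, Ftl1, Tk1, Pdgfc, Itga4, Bhlhe40, Bhlhe41, Jun, Lipe, H2-Oa, Ciita, Adam19, Slamf7, Nav1, Snn, F13a1, Csf1r, Cd9, Mmp12, Il1b, Cd3e and Slco2b1 cannot be told apart from those of a gene that overlaps them on the other strand. A coding gene on the same strand overlaps Klrb1b and Clec9a.

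**Figure D1:**
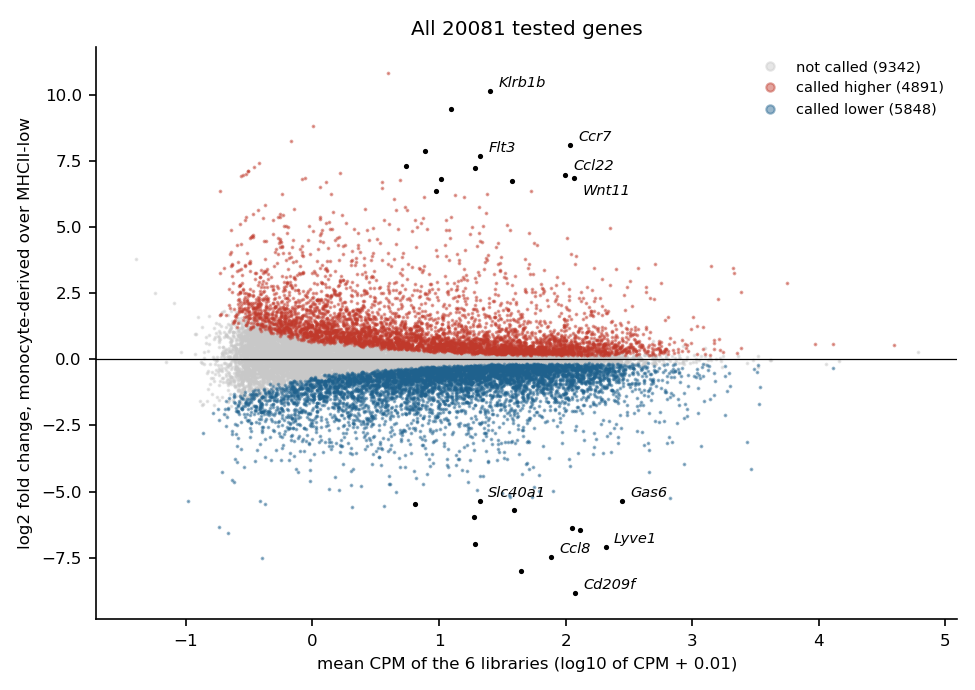
Each point is 1 of the 20081 tested genes, with the mean CPM of the 6 libraries on a log10 axis and the log2 fold change of monocyte-derived over MHCII-low cells on the vertical axis. Red points are the 4891 genes called higher, blue points the 5848 called lower and grey points those not called, and black points mark the 12 largest rises and 12 largest falls by the naming rule, some of them labelled.

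All 11 genes of the class II list were higher in monocyte-derived cells, with a median log2 fold change of 3.45 and no overlap between libraries, against 24.4% called higher over all genes. As low class II protein defined the macrophages, these values check the sort. H2-Ab1, a beta chain of MHC class II (chromosome 17, 34257689 to 34269419), stood at 4265, 3001 and 4202 CPM against 266, 327 and 443 CPM. Every monocyte-derived library lay above every MHCII-low one, with a log2 fold change of 3.45 (SE 0.20, adjusted p = 3.47e-07 by edgeR). H2-Aa, the matching alpha chain whose promoter is printed above, stood at 4314, 3098 and 4163 CPM against 324, 374 and 481 CPM, a log2 fold change of 3.28 (SE 0.16). Cd74, the invariant chain, was higher by 2.90 (SE 0.15) and Ciita by 2.05 (SE 0.17). H2-DMa, a subunit of the peptide-exchange factor of class II, was higher by 2.22 (SE 0.10) from a level of 40.9 to 53.2 CPM in MHCII-low cells.

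The DO chains, which modulate that exchange factor and are known from B cells and dendritic cells, were low in the macrophages. H2-Ob stood at 38.7, 17.9 and 22.7 CPM against 3.01, 1.71 and 1.51 CPM, a log2 fold change of 3.65 (SE 0.19). H2-Oa stood at 15.5, 5.53 and 8.04 CPM against 0.0644 to 0.0933 CPM, a log2 fold change of 6.78 (SE 0.41). That value rests on few counts in MHCII-low cells. H2-Eb2, a divergent beta chain, stood at 18.3, 10.1 and 16.3 CPM against 0.124 to 0.290 CPM, a log2 fold change of 6.15 (SE 0.23). Library 2 was the lowest and library 1 the highest of the monocyte-derived libraries for all 3 of these genes. B cell genes were read beside them: of 12 tested (13 listed), 9 were higher and 2 lower, and none was at 0 in all 6 libraries. Their summed level, as CPM of the library total without TMM factors, was 98.7, 177 and 109 CPM against 206, 169 and 175 CPM. Ighm, the heavy chain of IgM, made the largest part of it, at 63.1, 106 and 70.9 CPM against 198, 149.7 and 154 CPM. Without Ighm the sum turned the other way, at 34.0, 67.1 and 36.1 CPM against 14.9, 20.2 and 16.9 CPM. Among monocyte-derived libraries both sums were highest in library 2 and lowest in library 1, the reverse of H2-Ob, H2-Oa and H2-Eb2. The part of B cell RNA in these values was not tested.

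**Figure D2:**
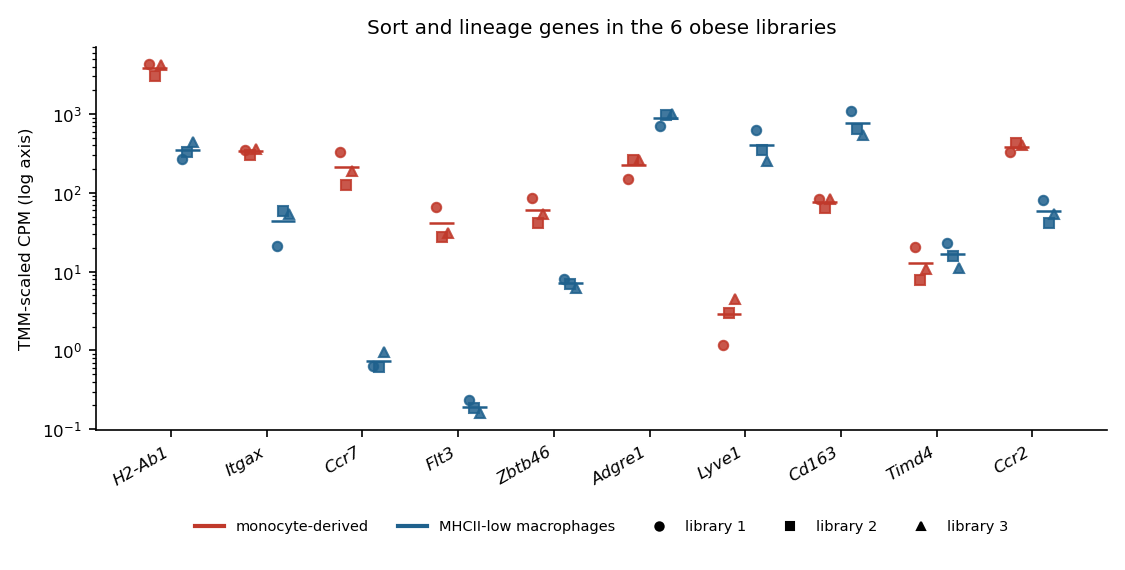
TMM-scaled CPM on a log axis of 10 sort and lineage genes in the 3 monocyte-derived (red) and 3 MHCII-low (blue) libraries of obese mice, with the library number as the symbol and the group mean as a line. The groups do not overlap for 9 of the 10 genes, and Timd4 is the one whose libraries overlap.

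Of 29 dendritic cell core genes, 23 were higher and 2 lower in monocyte-derived cells, with a median log2 fold change of 2.59. Over all tested genes 24.4% were called higher and 29.1% lower. Ccr7, the receptor that guides dendritic cells to lymph nodes (chromosome 11, 99144196 to 99155077), stood at 329, 127 and 187 CPM against 0.642, 0.622 and 0.966 CPM. Its log2 fold change was 8.12 (SE 0.42, adjusted p = 7.77e-07 by edgeR), and its mean in CD11c-positive macrophages was 3.52 CPM. Flt3, the receptor for the growth factor of dendritic cells (chromosome 5, 147330741 to 147400489), stood at 66.7, 27.4 and 31.1 CPM against 0.161 to 0.233 CPM, a log2 fold change of 7.67 (SE 0.31). Library 1 was highest for both genes, and the groups lay far apart. Zbtb46, a transcription factor of classical dendritic cells (chromosome 2, 181387762 to 181459426), stood at 86.6, 41.2 and 53.8 CPM against 6.22 to 7.94 CPM, a log2 fold change of 3.07 (SE 0.21). Macrophages also held a measured level of Zbtb46, with means of 5.65 and 6.57 CPM in the obese CD11c-negative and CD11c-positive populations.

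Other core genes went the same way. Bcl11a, a transcription factor of dendritic cell and B cell development, stood at 16.1, 9.73 and 9.72 CPM against 0.249 to 0.644 CPM. Cbfa2t3, a co-repressor, stood at 216, 157 and 149 CPM against 29.5 to 50.7 CPM, a log2 fold change of 2.26 (SE 0.08), and Ass1, which makes the precursor of arginine, rose by 3.91 (SE 0.15). Runx3, a transcription factor that dendritic cells share with lymphocytes, stood at 166 to 239 CPM against 5.48 to 13.6 CPM. The 2 core genes that fell were Anpep, an aminopeptidase also known as CD13 (log2 fold change -1.74, SE 0.08), and Nav1 (log2 fold change -0.55, SE 0.07). Kmo, Adam19, Slamf7 and Snn did not pass the test.

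The lists of the main dendritic cell types moved less evenly than the core. Of 13 tested type 1 genes (14 listed), 8 were higher and 5 lower, with a median of 0.82. Batf3, a factor of type 1 cells, stood at 18.3, 11.5 and 18.2 CPM against 4.96 to 6.38 CPM, a log2 fold change of 1.5 (SE 0.15), while Irf8, which works with it, was lower (log2 fold change -0.63, SE 0.07). Of their defining surface genes, Xcr1, a chemokine receptor, stood at 10.6, 13.9 and 18.7 CPM against 3.05 to 8.26 CPM, and Clec9a, a lectin that senses dead cells, at 4.03, 1.80 and 4.0 CPM against 0.0876 to 0.999 CPM. Of 12 tested type 2 genes (13 listed), 4 were higher and 4 lower, with a median of -0.10, and the fit without the replicate block called 2 higher. Genes of 10 CPM or more lay near this, with 28.3% higher, 41.0% lower and a median of -0.09. Cd209a, a lectin of type 2 and monocyte-derived dendritic cells, stood at 196, 101 and 133 CPM against 41.7, 20.0 and 22.3 CPM, a log2 fold change of 2.38 (SE 0.13). Mgl2, a galactose lectin, was higher by 1.54 (SE 0.16), a call that the fit without the replicate block did not make, and its relative Clec10a was lower (log2 fold change -1.43, SE 0.11). Sirpa and Klf4, which macrophages also express, were both lower, with log2 fold changes of -0.65 (SE 0.07) and -1.34 (SE 0.13).

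Of 19 tested genes of mature migratory dendritic cells (20 listed), 16 were higher and 0 lower, with a median of 2.58. A fit without monocyte-derived library 1 called 2 lower. Ccl22, a chemokine for T cells that carry CCR4, stood at 249, 119.9 and 222 CPM against 1.08 to 1.87 CPM, a log2 fold change of 6.99 (SE 0.32). Il12b, the p40 subunit of interleukin 12 and 23, stood at 15.9, 11.6 and 18.7 CPM, and all of its 6 counts in MHCII-low cells came from library 3. The ratio of its levels was 253, with a 95% exact interval of 116 to 690.1 that covers counting error only. Socs2, an inhibitor of cytokine signalling, stood at 23.5, 8.39 and 13.6 CPM against 1.90 to 2.64 CPM, and Apol7c, of the apolipoprotein L family, at 25.5, 13 and 17.1 CPM against 0.204 to 0.226 CPM. Library 2 was the lowest of the monocyte-derived libraries for all 4 of these genes. Cd83, Marcksl1 and Serpinb6b did not pass the test, and Cd83 stood at 459.8 to 607 CPM against 551 to 559 CPM.

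Monocyte genes were read to check the label of the gate. Of 26 tested (27 listed), 20 were higher and 2 lower, with a median of 1.31, against 24.4% called higher over all genes. With only genes of at least 10 CPM in 3 libraries tested, 12 of the list were higher. Ccr2, the receptor that brings monocytes out of bone marrow and into tissue (chromosome 9, 124101950 to 124113557), stood at 334, 426 and 399.9 CPM against 80.1, 41.1 and 53.8 CPM, a log2 fold change of 2.83 (SE 0.26). Plac8, Itgal and Napsa, genes of circulating monocytes, were higher by 3.44 (SE 0.21), 2.87 (SE 0.20) and 5.10 (SE 0.15). Vcan, a matrix proteoglycan of classical monocytes, stood at 50.6, 80.9 and 33.3 CPM against 25.2, 33.8 and 20.4 CPM, so that the groups overlapped while every pair went the same way. Ly6c2, which defines classical monocytes, stood at 2.93, 5.39 and 4.76 CPM against 0.409 to 0.934 CPM. S100a8 was at 0 to 0.415 CPM in monocyte-derived and 0 to 0.436 CPM in MHCII-low libraries and was not called, and S100a9 had too few counts to be tested. F13a1, a clotting factor chain, went the other way, at 181 to 234 CPM against 1460.2 to 3365 CPM. The gate thus held higher levels of most monocyte genes and of most dendritic cell core genes than the macrophages. Its submitted name is kept here and no other cell type name is given.

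Of 24 resident macrophage genes, 23 were lower in monocyte-derived cells and 0 higher, with a median log2 fold change of -4.20, against 29.1% called lower over all genes. Lyve1, the hyaluronan receptor that marks a resident subset (chromosome 7, 110850607 to 110863239), stood at 1.18, 2.95 and 4.46 CPM against 627, 351 and 252 CPM. Its log2 fold change was -7.10 (SE 0.53, adjusted p = 1.81e-05 by edgeR). Library 1 was the highest of the macrophages and the lowest of the monocyte-derived cells. Cd163, the haemoglobin scavenger receptor (chromosome 6, 124304656 to 124330527), stood at 84.6, 64.5 and 83.4 CPM against 1087, 642 and 548 CPM, a log2 fold change of -3.26 (SE 0.21). Gas6, the bridging ligand that tags dying cells for uptake, stood at 7.0, 21.8 and 13.7 CPM against 699.8, 500.1 and 438 CPM, a log2 fold change of -5.35 (SE 0.41). Igf1, a growth factor, and Dab2, an endocytic adaptor, had log2 fold changes of -2.59 (SE 0.10) and -2.13 (SE 0.10). Timd4, the phosphatidylserine receptor of long-lived resident macrophages (chromosome 11, 46810800 to 46844332), was the member that did not pass, at 20.3, 7.88 and 10.8 CPM against 22.8, 15.7 and 11.1 CPM. The groups overlapped, with a log2 fold change of -0.37 (SE 0.22, adjusted p = 0.177 by edgeR), although it was called lower without monocyte-derived library 1 (adjusted p = 0.0462), without number 1 in all populations (0.0285) and with no filter on low counts (0.0363).

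All 31 macrophage core genes were lower, with a median of -1.59. Adgre1, which encodes F4/80 (chromosome 17, 57358691 to 57483527), stood at 149.9, 264 and 261 CPM against 711, 977 and 991 CPM, a log2 fold change of -2.01 (SE 0.11). Glul, glutamine synthetase, stood at 147, 243 and 214 CPM against 919 to 1057 CPM, and Fcgr3, an activating receptor for IgG, at 107, 128 and 137 CPM against 345 to 397 CPM. Library 1 was the lowest of the monocyte-derived libraries for all 3 of these genes and the highest for Ccr7, Flt3 and Zbtb46. Mertk, the uptake receptor of mature macrophages, had a log2 fold change of -3.74 (SE 0.27), and Csf1r, the receptor for their growth factor, one of -1.36 (SE 0.09). These genes were lower but still measured in monocyte-derived cells, where Csf1r stood at 707, 916 and 903 CPM.

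**Figure D3:**
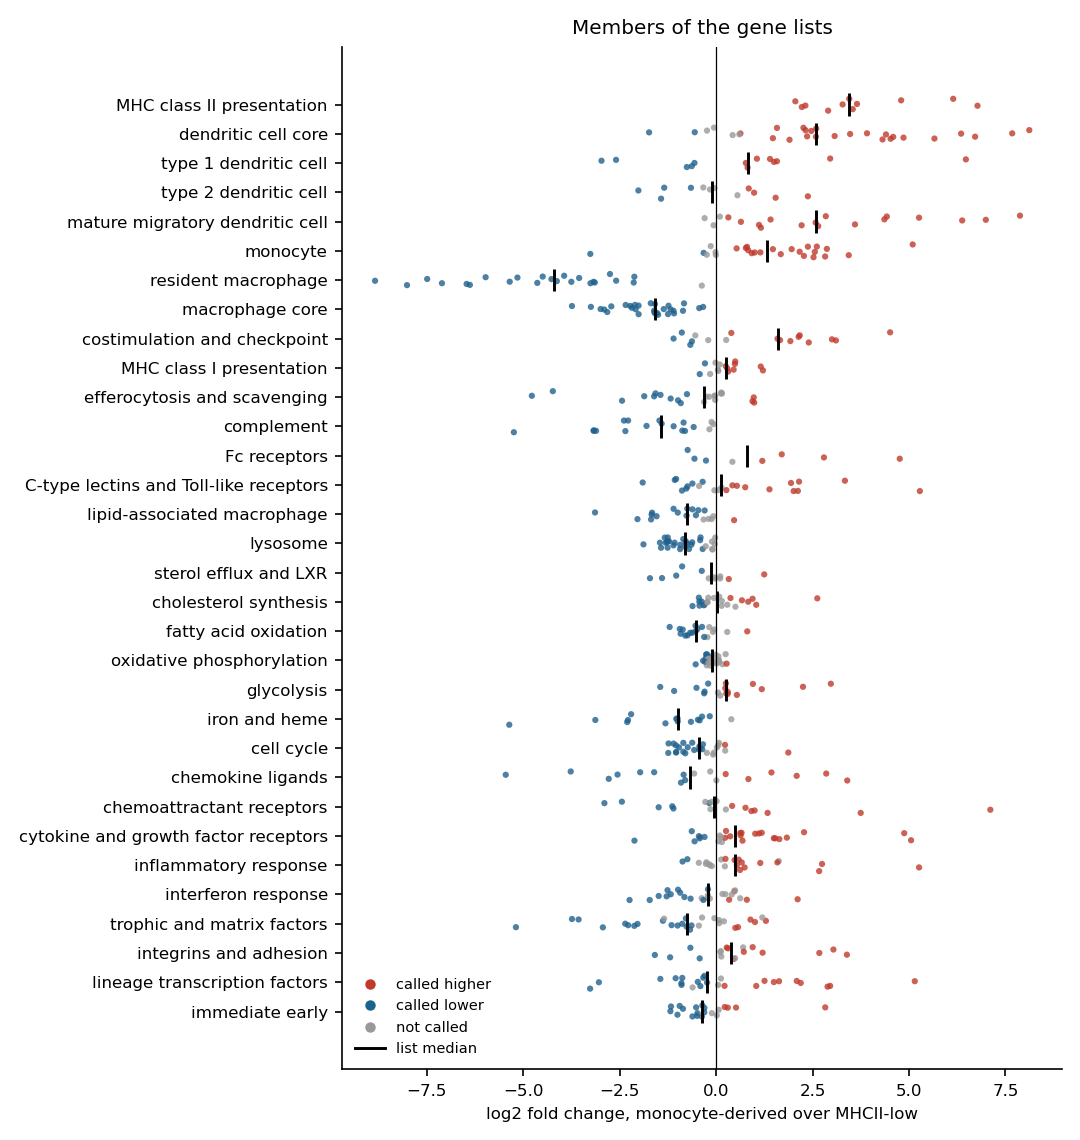
The log2 fold change of monocyte-derived over MHCII-low cells for every tested member of 32 gene lists, 1 row a list, with red points called higher, blue called lower, grey not called and a black bar at the list median. Class II, dendritic cell core and mature migratory genes lie mostly right of 0, and resident macrophage, macrophage core, complement, iron and lysosome genes lie mostly left of it.

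The 12 largest rises among genes of 10 CPM or more held 3 lectin-like receptors of the natural killer gene complex on chromosome 6. Klrb1b, an inhibitory receptor, stood at 76.8, 35.6 and 39.5 CPM, with 3729 counts against 4 in the 3 macrophage libraries together. The ratio of its levels was 1267, with an exact 95% interval of 494 to 4651 for counting error. Klri1, another receptor of the family, had 1807 counts against 3, a ratio of 818 with an interval of 279.6 to 3972. Klrd1, which encodes CD94, had 801 counts against 6, a ratio of 181 with an interval of 83.0 to 496. Genes of this family have similar sequences and can share reads. Siglecg, an inhibitory receptor for sialic acid known from B cells and dendritic cells, stood at 55.1, 24.2 and 35.4 CPM against 0.146 to 0.387 CPM. Wnt11, a secreted Wnt ligand, stood at 314, 166 and 214 CPM against 1.26 to 3.04 CPM, a log2 fold change of 6.84 (SE 0.25). Mmp25, a membrane-anchored metalloproteinase, and Mreg, melanoregulin, were higher by 6.74 (SE 0.16) and 6.81 (SE 0.34).

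Markers of T and NK cells were read beside the lectin-like receptors. Of 19 tested (21 listed), 11 were higher and 1 lower, and none was at 0 in all 6 libraries. Their summed level was 93.3, 50.7 and 62.4 CPM against 20.4, 21.4 and 26.5 CPM. Klrk1, which encodes NKG2D and is expressed by NK and T cells, made the largest single part of it in monocyte-derived cells, at 65.6, 21.8 and 35.0 CPM against 0.653 to 0.817 CPM. Without Klrk1 the sum was 26.1, 28.0 and 26.4 CPM against 19.6, 20.7 and 25.8 CPM. Cd3e, a chain of the T cell receptor complex, stood at 1.03, 1.89 and 1.68 CPM against 0.409 to 0.934 CPM. Without number 2 in all populations, 5 of them were higher. The part of T and NK cell RNA in these values was not tested.

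The 12 largest falls held 2 neighbouring lectin genes of the DC-SIGN family on chromosome 8. Cd209f stood at 0.266, 0.277 and 0.968 CPM against 361, 173 and 176 CPM, a log2 fold change of -8.84 (SE 0.43), and Cd209g had one of -8.01 (SE 0.43). Their relative Cd209a went the opposite way, as given above, and reads can be shared within the family. Ccl8 and Ccl12, neighbouring monocyte chemoattractant genes on chromosome 11, had log2 fold changes of -7.49 (SE 0.43) and -5.45 (SE 0.32). Fcna, which encodes the complement lectin ficolin A, stood at 1.56, 2.49 and 4.55 CPM against 374, 218 and 178 CPM. C6, a part of the membrane attack complex, stood at 0.114, 0.461 and 0.379 CPM against 33.0, 46.0 and 34.5 CPM. Vsig4, a complement receptor of resident macrophages, stood at 0.0761, 0.692 and 1.14 CPM against 31.3 to 42.4 CPM. In each of the 12 falls every monocyte-derived library lay under every MHCII-low library, which the naming rule required. Slc40a1, ferroportin, the exporter of iron from cells, stood at 0.419, 1.98 and 0.884 CPM against 34.8, 49.5 and 37.9 CPM. Cbr2, a carbonyl reductase, and Chp2, a calcineurin-like protein, completed the falls with log2 fold changes of -6.38 (SE 0.48) and -5.71 (SE 0.35).

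**Figure D4:**
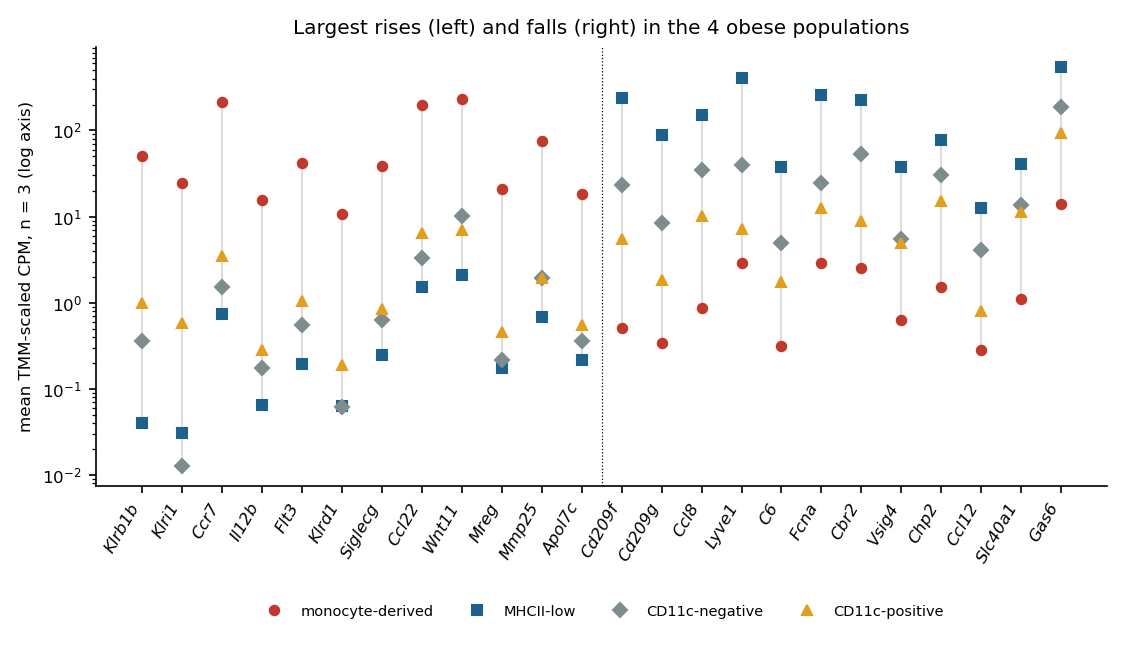
Mean TMM-scaled CPM (n = 3, log axis) of the 12 largest rises and 12 largest falls in the 4 obese populations. Monocyte-derived cells (red) stand above all 3 macrophage populations for each rise and below them for each fall, and CD11c-negative (grey) and CD11c-positive (yellow) macrophages lie between the compared groups for each fall.

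Set beside the other obese macrophages, which share libraries with the fit and are given as a description, monocyte-derived cells had the highest mean of the 4 populations for 560 of the 576 genes called at least 1 log2 unit higher at 10 CPM or more. All 3 of their libraries lay above all 9 macrophage libraries for 504 of them, against 3021 of all tested genes (15.0%). For the 1034 genes called at least 1 log2 unit lower, monocyte-derived cells had the lowest mean for 965, and all 3 libraries lay below all 9 for 848, against 3502 of all tested genes (17.4%). Both sets were chosen for a difference from the MHCII-low libraries, which are 3 of the 9. The shares of all tested genes are therefore not a like baseline for them. MHCII-low macrophages had the highest mean for 733 of the 1034 and the lowest for 421 of the 576, and CD11c-positive macrophages had the highest for 237 and the lowest for 124. For the 12 largest falls the means stepped down from MHCII-low through CD11c-negative and CD11c-positive to monocyte-derived cells, an order found in 422 of the 1034 genes. Lyve1 is 1 of the 12, at means of 410.2 CPM in MHCII-low, 39.5 in CD11c-negative, 7.19 in CD11c-positive and 2.86 in monocyte-derived cells. Adgre1 ran otherwise, at 893, 974, 1038 and 225 CPM in that order, with no step down among the macrophages. Itgax, which encodes CD11c (chromosome 7, 128129547 to 128150657), stood at 351, 303 and 365 CPM against 21.4, 58.2 and 53.6 CPM, a log2 fold change of 3.04 (SE 0.27), with a mean of 586 CPM in CD11c-positive macrophages.

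Genes of T cell contact were higher in part, beside 28.3% called higher and 41.0% called lower of all genes of 10 CPM or more. Of 17 tested costimulation and checkpoint genes (18 listed), 10 were higher and 4 lower, with a median of 1.59. Cd80, a ligand of CD28, stood at 123, 69.8 and 83.2 CPM against 31.5, 22.4 and 18.2 CPM, a log2 fold change of 1.93 (SE 0.11), whereas Cd86, the other such ligand, was not called (log2 fold change 0.26, SE 0.11). Cd274, which encodes the inhibitory ligand PD-L1, stood at 121, 70.2 and 99.1 CPM against 16.2 to 19.2 CPM, a log2 fold change of 2.40 (SE 0.13). Cd244a, an immune receptor of the SLAM family, and Tnfsf9, the ligand of 4-1BB, were higher by 3.00 (SE 0.18) and 2.14 (SE 0.15). Of 15 class I presentation genes, 8 were higher and 2 lower, with a median of 0.25, while the fit of all 21 libraries called 4 higher and 0 lower. Without number 3 in all populations 4 were higher. Only 1 was lower with DESeq2, with its size factors, with no filter on low counts and without the block. The same held in the 6 compared libraries and in most fits that left libraries out. Tap1, a subunit of the peptide transporter, was higher by 1.21 (SE 0.09), and B2m, the light chain, was lower (log2 fold change -0.42, SE 0.10) except in that fit.

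Receptors for cytokines, microbes and chemoattractants split, beside 28.3% called higher and 41.0% called lower of all genes of 10 CPM or more. Of 28 cytokine and growth factor receptors, 17 were higher and 6 lower, with a median of 0.50. Il1r2, the decoy receptor of interleukin 1, stood at 63.4, 36.2 and 30.4 CPM against 0.934 to 1.69 CPM, a log2 fold change of 5.05 (SE 0.16). Csf2rb, the shared chain of the GM-CSF receptor, stood at 982, 678 and 804 CPM against 143 to 196 CPM, a log2 fold change of 2.28 (SE 0.13). Tgfbr2, a chain of the receptor for TGF-beta, was lower (log2 fold change -2.12, SE 0.16). Of 23 C-type lectins and Toll-like receptors, 11 were higher and 8 lower, with a median of 0.14. Ly75, the endocytic lectin DEC-205 of dendritic cells, stood at 33.0, 14.0 and 20.0 CPM against 0.321 to 0.809 CPM, and Nod2, a sensor of bacterial wall fragments, was higher by 2.15 (SE 0.11), while Tlr8, a sensor of RNA, was lower (log2 fold change -1.07, SE 0.08). Of 18 tested chemoattractant receptors (21 listed), 7 were higher and 6 lower, and without number 2 in all populations 4 were higher. S1pr1, a sphingosine phosphate receptor, stood at 7.91, 17.2 and 9.05 CPM against 79.3 to 83.2 CPM. Of 8 tested Fc receptor genes (10 listed), 4 were higher and 3 lower, or 1 lower without number 2. Fcgr2b, the inhibitory receptor for IgG, was lower (log2 fold change -0.74, SE 0.09).

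Secreted factors split as well, beside the same shares of genes of 10 CPM or more. Of 18 chemokine genes, 6 were higher and 9 lower, with a median of -0.69. Ccl5 stood at 33.8, 21.8 and 29.9 CPM against 2.32 to 3.36 CPM, a log2 fold change of 3.40 (SE 0.14), and Cxcl9, an interferon-induced chemokine, at 7.15, 9.78 and 29.1 CPM against 1.58 to 2.26 CPM. Ccl2 and Ccl7, ligands of Ccr2, were lower, with log2 fold changes of -2.78 (SE 0.28) and -3.77 (SE 0.34), while Ccr2 itself was higher. Of 23 tested inflammatory genes (24 listed), 12 were higher and 2 lower, with a median of 0.48, and without monocyte-derived library 3, 5 were lower. Rel, a subunit of NF-kB, stood at 1784, 1289 and 1509 CPM against 474 to 527 CPM, a log2 fold change of 1.59 (SE 0.08). Ptgs2, which makes prostaglandins, and Il1b, which encodes interleukin 1 beta, were higher by 2.67 (SE 0.17) and 2.75 (SE 0.40), while Tnf and Il6 did not pass the test. Of 29 trophic and matrix genes, 5 were higher and 16 lower, with a median of -0.76, and the fit of all 21 libraries called 2 higher. Pdgfc, a growth factor for mesenchymal cells, stood at 1.07, 2.72 and 2.27 CPM against 80.7, 70.8 and 61.3 CPM, a log2 fold change of -5.19 (SE 0.27). Timp2, an inhibitor of matrix proteases, was lower (log2 fold change -2.93, SE 0.19), and Vegfa, an angiogenic factor, was higher by 1.29 (SE 0.15).

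Most genes of clearance and digestion that were called were lower in monocyte-derived cells. Over all tested genes 29.1% were called lower, and 41.0% of those of 10 CPM or more. Of 18 tested complement genes (20 listed), 15 were lower and 0 higher, with a median of -1.44. C1qc, a chain of the first complement component, stood at 74.8, 179 and 201 CPM against 1265, 1235 and 1173 CPM, a log2 fold change of -3.11 (SE 0.26), and C3ar1, the receptor for C3a, was lower (log2 fold change -2.35, SE 0.13). Of 31 lysosome genes, 25 were lower and 0 higher, with a median of -0.80. Atp6v1a, a subunit of the proton pump, stood at 166, 213 and 205 CPM against 558, 538 and 505 CPM, a log2 fold change of -1.46 (SE 0.09), and Grn, progranulin, was lower (log2 fold change -1.88, SE 0.11). Of 23 tested uptake genes (25 listed), 3 were higher and 11 lower, with a median of -0.31, a share lower that lay nearer to those percentages than in the complement and lysosome lists. Cd36, a receptor for fatty acids and oxidised lipoprotein, and Msr1, another scavenger receptor, had log2 fold changes of -1.18 (SE 0.08) and -1.57 (SE 0.11). Abca7, a lipid transporter, and Axl, a receptor of Gas6, were higher by 0.94 (SE 0.09) and 0.98 (SE 0.18).

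Lipid-associated macrophage genes, which mark the macrophages around dying fat cells in obesity, were lower for 14 of 19, with a median of -0.75. Mmp12, an elastase, was the 1 that was higher, by 0.47 (SE 0.12), a call not made without the replicate block. The fit of all 21 libraries called 8 lower. Trem2, the lipid sensor of these cells, stood at 37.6, 57.6 and 69.4 CPM against 115, 175 and 186 CPM, a log2 fold change of -1.54 (SE 0.08). Ctsl, a lysosomal protease, Plin2, a coat protein of lipid droplets, and Apoe, a lipid carrier, had log2 fold changes of -2.04 (SE 0.09), -0.99 (SE 0.08) and -3.14 (SE 0.18). Lpl, Cd9, Lgals3 and Fabp5 did not pass the test. Of 15 iron and heme genes, 14 were lower and 0 higher, with a median of -1.0, and 9 were lower in the fit of all 21 libraries. Tfrc, the transferrin receptor, stood at 28.6, 25.8 and 26.8 CPM against 172, 116 and 111 CPM, a log2 fold change of -2.28 (SE 0.14), and Ftl1, a chain of the iron store ferritin, was lower (log2 fold change -0.99, SE 0.07).

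Metabolic lists moved by less. Their counts are read beside 28.3% called higher and 41.0% called lower of all genes of 10 CPM or more. Of 19 fatty acid oxidation genes, 13 were lower and 1 higher, with a median of -0.53. Cpt1a, which admits fatty acids to mitochondria, stood at 132, 172 and 156 CPM against 271, 312 and 283 CPM, a log2 fold change of -0.92 (SE 0.07), and the gene that was higher was Slc25a20, the carnitine carrier, by 0.81 (SE 0.10). Of 18 glycolysis genes, 10 were higher and 6 lower, with a median of 0.25, while the fit of all 21 libraries called 5 higher and 3 lower. Slc16a3, the lactate exporter, stood at 122, 126 and 104 CPM against 23.1, 25.0 and 25.3 CPM, and Slc2a3, a glucose carrier, at 37.3, 16.1 and 22.1 CPM against 2.77 to 3.41 CPM. Of 28 oxidative phosphorylation genes, 1 was higher and 7 lower, with a median of -0.10, and without number 3 in all populations the counts were 0 and 1. Of 22 cholesterol synthesis genes, 6 were higher and 6 lower, or 2 lower without number 2. Of 12 genes of sterol efflux, 2 were higher and 5 lower. Of these, 1 was higher in place of 2 without any 1 of the 3 monocyte-derived libraries, without MHCII-low library 1 or 3, without number 3 in all populations, in the fit of all 21 libraries and in that of the 6 compared. Abca9, a lipid transporter, was lower (log2 fold change -1.40, SE 0.09).

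Cell cycle and transcription factor counts are read beside 28.3% called higher and 41.0% called lower of all genes of 10 CPM or more. Of 28 cell cycle genes, 2 were higher and 18 lower, with a median of -0.43. Cenpf, a kinetochore protein, stood at 13.1, 14.3 and 14.3 CPM against 35.1, 29.2 and 25.9 CPM, a log2 fold change of -1.10 (SE 0.14), and Ccnb2, a mitotic cyclin, was lower (log2 fold change -1.04, SE 0.13). Tk1, thymidine kinase, stood at 132, 72.8 and 89.8 CPM against 22.3 to 30.5 CPM, and Mcm4, a replication helicase subunit, was the other gene that was higher, by 0.23 (SE 0.09), a call not made without the replicate block. The call of Mcm4 was also lost with no filter on low counts and in the fits of all 21 and of the 6 compared libraries. It was lost too without library 1 or 3 of either group, and without number 1 or 3 in all populations. Among 25 transcription factors of these lineages, 10 were higher and 12 lower. Bhlhe40 stood at 644, 469 and 589 CPM against 66.8 to 81.4 CPM, a log2 fold change of 2.96 (SE 0.10), and its paralog Bhlhe41 at 4.98, 6.96 and 7.07 CPM against 54.1, 48.4 and 53.0 CPM, a log2 fold change of -3.04 (SE 0.12). The paralogs, transcription repressors of similar sequence, went opposite ways. Nr4a3, an orphan nuclear receptor, was higher by 2.89 (SE 0.11), and Rxra, the partner of many nuclear receptors, was lower (log2 fold change -1.44, SE 0.07).

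Immediate early, interferon and adhesion counts are read beside the same 28.3% higher and 41.0% lower of genes of 10 CPM or more. Of 21 immediate early genes, which respond to tissue digestion as well as to signals in the tissue, 4 were higher and 13 lower, with a median of -0.37. The fit of all 21 libraries called 1 higher and 6 lower. Jun, a chain of AP-1, stood at 381, 385 and 364 CPM against 936, 793 and 817 CPM, and the phosphatase Dusp2 was higher by 2.83 (SE 0.16). Of 25 interferon response genes, 4 were higher and 12 lower, with a median of -0.22. Without MHCII-low library 1 the number lower was 6, and without number 1 in all populations it was 7, with 7 higher. Oas2, an antiviral enzyme, stood at 10.5, 13.7 and 11.1 CPM against 78.0, 46.4 and 45.5 CPM, while Mx1, an antiviral GTPase, was higher by 2.11 (SE 0.17). Of 18 integrin and adhesion genes, 9 were higher and 4 lower. Itgb7, a partner of integrin alpha 4, stood at 163, 96.9 and 108 CPM against 10.8 to 11.7 CPM, a log2 fold change of 3.39 (SE 0.20), and Itga4 itself was higher by 0.95 (SE 0.12).

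Markers of other cells were read in every library. Of 16 fibroblast genes, 15 were called lower with the block, 0 without it and 1 in the fit of all 21 libraries. Their sum was 1095, 2554 and 1026 CPM against 1530.4, 3292 and 1822 CPM, so that library 2 was the highest in both groups. Summed neutrophil genes, of which 2 of 9 could be tested, were at 1.38 to 3.31 CPM and 0.900 to 1.11 CPM, and summed endothelial genes at 71.9 to 169 CPM and 129.7 to 194 CPM. Of 8 tested adipocyte genes (11 listed), 6 were lower and 1 higher, with a median of -1.37. Their sum was 24.5 to 26.9 CPM and 21.7 to 23.8 CPM, of which Lipe, the hormone-sensitive lipase and the gene that was higher, made the largest part at 21.2, 19.0 and 19.7 CPM against 9.89 to 12.5 CPM. Without Lipe the sum was 4.06, 7.14 and 4.28 CPM against 12.2, 12.6 and 10.5 CPM. Background reads also differed: 1733 genes of olfactory and vomeronasal receptors, a class tied to smell, added up to 106, 174 and 80.5 CPM against 53.2, 32.8 and 42.5 CPM. At an equal depth of 11245851 counts, 27428 to 32114 genes would be detected in monocyte-derived and 24205 to 24744 in MHCII-low libraries. The part of these cells and of this background in the results was not tested.

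The same difference was set against lean mice, where monocyte-derived cells were compared with MHCII-low macrophages from mice on the normal diet. An interaction term over all 21 libraries tested the obese difference minus the lean difference for 22935 genes, and 995 (4.34%) were called, 437 more positive (1.91%) and 558 more negative (2.43%) in obese mice. With the title number within diet as a block the count was 1833, although equal titles did not pair the lean libraries. The balance of directions turned round without lean monocyte-derived library 2, at 1384 more positive and 1143 more negative, and with no filter on low counts, at 893 and 808. Protein-coding genes took 67.1 to 82.5% of the lean monocyte-derived libraries. The count of calls rested on single libraries: it was 440 without obese MHCII-low library 2, 465 without obese MHCII-low library 3, 495 and 627 without lean MHCII-low libraries 2 and 3, 519 and 546 without obese monocyte-derived libraries 2 and 3, and 2527 without lean monocyte-derived library 2. The class II list had medians of 3.51 in lean and 3.45 in obese mice. Of the 24 resident macrophage genes 4 were called, all more positive in obese mice, with medians of -5.17 in lean and -4.20 in obese mice.

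Of the 28 cell cycle genes, 21 were called, all more negative in obese mice. Their median log2 fold change was 0.92 in lean mice, where 22 were higher in monocyte-derived cells, and -0.43 in obese mice. Over all 22935 genes the lean comparison called 5729 higher and 4822 lower, with a median of 0.15. Birc5, survivin, a regulator of mitosis and cell death, stood at 5.97, 4.61 and 6.06 CPM in obese monocyte-derived and 10.3, 9.05 and 10.7 CPM in obese MHCII-low libraries. In lean mice it stood at 5.83, 6.17 and 5.22 CPM in monocyte-derived and 1.41, 1.02 and 1.81 CPM in MHCII-low libraries. The monocyte-derived libraries overlapped between diets, and the MHCII-low libraries did not. The difference between the diets was -2.87 (SE 0.30), with an adjusted p of 2.87e-05 by edgeR.

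For Itgax and Kcnn4 too, the MHCII-low libraries of the diets did not overlap. Lean MHCII-low libraries held Itgax at 3.73 to 5.43 CPM and obese ones at 21.4 to 58.2 CPM, while monocyte-derived libraries held 293 to 361 CPM and 303 to 365 CPM, a difference of -3.19 (SE 0.40). Kcnn4, a calcium-activated potassium channel, stood at 9.70 to 10.6 CPM in lean and 41.2 to 78.5 CPM in obese MHCII-low libraries, a difference of -2.61 (SE 0.29). Plxdc1, a transmembrane receptor, changed side: it was higher in monocyte-derived cells of lean mice, by 3.29 (SE 0.56), and lower in those of obese mice (log2 fold change -1.40, SE 0.31). Mmp9, a gelatinase, stood at 185 to 263 CPM in lean and 8.56 to 11.2 CPM in obese MHCII-low libraries, a difference of 3.07 (SE 0.62). Hpgds, a prostaglandin D synthase, was lower in monocyte-derived cells of both diets, at 3.92, 3.66 and 3.51 CPM in lean and 19.5, 42.0 and 40.2 CPM in obese libraries, a difference of 3.05 (SE 0.33). MHCII-low macrophages held it at 168 to 212 CPM in lean and 191 to 214 CPM in obese mice. Ms4a14, Cd300ld4 and Slco2b1 were likewise less low in obese mice, with differences of 3.50 (SE 0.67), 2.96 (SE 0.34) and 2.73 (SE 0.45). Il2ra, a chain of the interleukin 2 receptor, stood at 14.9 to 46.4 CPM against 6.66 to 8.75 CPM in lean and at 16.6 to 30.5 CPM against 0.591 to 1.13 CPM in obese mice, a difference of 2.88 (SE 0.46).

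**Figure D5:**
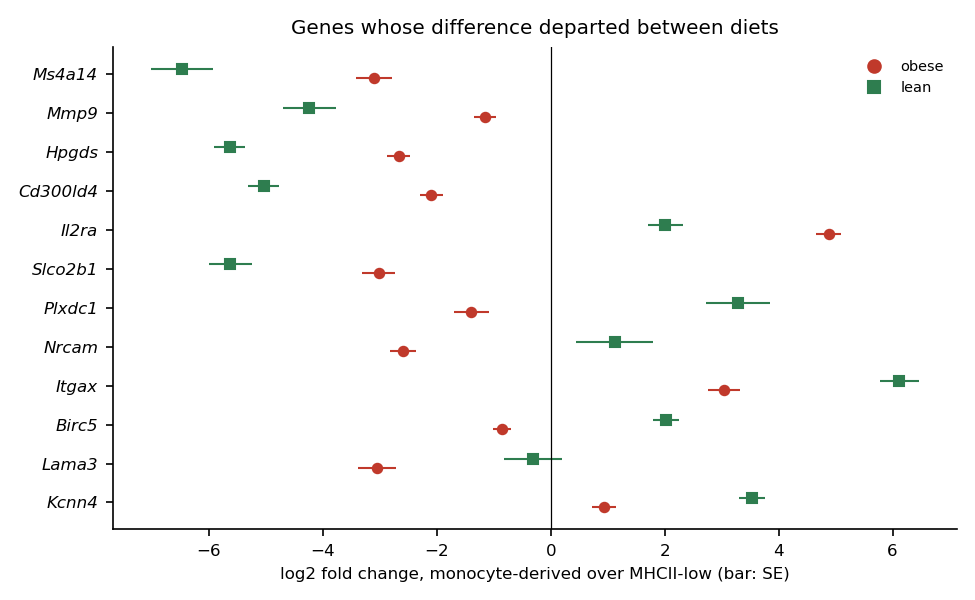
The log2 fold change of monocyte-derived over MHCII-low cells in obese (red) and lean (green) mice, with SE bars, for the 6 genes whose difference was most positive and the 6 whose difference was most negative in obese against lean mice by the naming rule. The rule kept called differences at 10 CPM or more whose obese groups did not overlap and whose 3 obese pairs went the same way. Genes that overlapped between the obese groups were thus left out. The obese values come from the 12 obese libraries with the block and the lean values from the 21 libraries without it, and Plxdc1 and Birc5 lie on opposite sides of 0 in the 2 diets, each side called.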

How the data were processed

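RNA sequencing of sorted adipose tissue myeloid cells gave 1 table of whole-number counts per gene for 21 libraries, deposited by the authors. Per the submitters' processing notes, reads were handled with STAR 2.6.0a, Trim Galore 0.4.5, bcl2fastq and featureCounts of Subread 1.4.6-p5 on genome build GRCm38. Whether counting used strand is not stated there. Of 54532 gene IDs, 53315 matched the GENCODE M21 annotation with their version and 54495 without it, which gave symbols and GRCm38 coordinates.

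Counts were scaled by TMM over all 21 libraries and fitted with edgeR 4.0.16 (R 4.3.3). The obese comparison used 12 libraries, 4 population means and the title number as a block, after edgeR's default filter on low counts. The obese against lean difference used 21 libraries and 7 group means. Equal numbers deviated together: over 10379 genes of at least 5 CPM, deviations from the group means correlated at 0.153 to 0.434 in the 3 pairs compared and at -0.291 to 0.0985 between unequal numbers. As the deviations were taken from means of 3 libraries, the values between unequal numbers follow in part from those of equal numbers. The lowest of the pairs, number 3, was close to the highest value between unequal numbers. Scripts were tested on simulated data. Alternatives were DESeq2 1.42.0 and its size factors, other filters, other libraries or blocks, and leaving out libraries.

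Named genes were 10 sort and lineage genes, the 12 largest called rises and falls of at least 10 CPM without overlap between libraries, up to 5 called genes a list by smallest p, and 6 diet differences a direction. Those 6 were the largest called differences among genes with an official symbol and at least 10 CPM in a group. Their obese groups also had to be without overlap, with all 3 obese pairs in the same direction. Genes whose obese groups overlapped were left out of the 6, whatever their lean difference. The other genes given by name, such as Ly6c2, Ciita, Runx3, Xcr1, Clec9a, S100a8, F13a1, Mertk, Csf1r, Cd86, Axl, Apoe, Mmp12, Mcm4, Ccl2, Ccl7, Il1b, Vegfa and Cd3e, were chosen after their values were seen. The comparison and the 42 lists were chosen with earlier results of these data known. Promoters came from RefSeq for GRCm38.p6. Intervals cover counting error only, as PCR copies are not independent molecules. The depth of 20871699 to 35568948 counts in the libraries compared limits precision mainly for genes near 0. Some list members are not reported here by name.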

Additional observations from a re-analysis of the deposited data

Results flagged for a closer look

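Each gene here differed between diets by the test of the difference itself, (obese monocyte-derived minus MHCII-low) minus (lean monocyte-derived minus MHCII-low), with an adjusted p under 0.05 by edgeR over 22935 genes. The values are differences on the log2 scale.

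Of the resident macrophage list 4 genes were called, all positive, with a median of 0.44 over the 24 tested. Of the uptake list 2 were called, both positive, although the median over 25 was -0.35. Of the lipid-associated list 3 were positive and 3 negative, with a median of -0.01 over 19. Among those named, the difference was 1.13 for Igf1, 1.18 for Wwp1, 1.56 for Msr1, 1.51 for Cd36, 1.18 for Ctsl and 1.36 for Cd63. Mylip, a ubiquitin ligase of the sterol list, had 1.73. The monocyte genes Plac8 and Ace had 1.99 and 1.65, the transferrin receptor Tfrc 0.74, Tgfbr2 0.93 and Bhlhe41 2.36. The 6 named as most positive among genes whose obese groups did not overlap were Ms4a14 at 3.50, Mmp9 at 3.07, Hpgds at 3.05, Cd300ld4 at 2.96, Il2ra at 2.88 and Slco2b1 at 2.73.

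Cell cycle genes carried negative values, with Ccnb2 at -1.68, Mcm6 at -0.93, Cenpf at -1.57, Ccna2 at -2.34 and Tk1 at -1.79. The sterol genes Idi1 and Cyp51 had -1.21 and -0.76. The mitochondrial genes Slc25a20, Ndufs1 and Uqcrfs1 had -1.21, -0.54 and -0.89. Wdfy4, needed for cross-presentation, had -0.83, Casp1 -0.72 and the integrin chain Itga4 -1.19. The 6 named as most negative by the same rule were Plxdc1 at -4.82, Nrcam at -3.77, Itgax at -3.19, Birc5 at -2.87, Lama3 at -2.62 and Kcnn4 at -2.61. For Nrcam and Lama3 the lean comparison alone was not called, and leaving out single libraries ended the call of their difference in 9 settings each.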

How the results depend on the processing

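No log2 fold change or diet difference of a named gene changed its sign. The median over all tested genes of -0.01 was above 0 with DESeq2 size factors, DESeq2 and no filter, at 0.0018, 0.0084 and 0.47. Of the named genes' values in the obese comparison, 3070 kept their side of the threshold, 57 in 18 genes fell below it and 3, all of Timd4, passed it. Testing genes of at least 10 CPM in 3 libraries gave 6257 calls, 2528 higher and 3729 lower, since fewer genes were tested, and took the higher calls of the monocyte list from 20 to 12, of the mature migratory list from 16 to 10, of the type 1 list from 8 to 4, of the B cell list from 9 to 1, of the T and NK cell list from 11 to 1 and of the Fc receptor list from 4 to 0. The fit of all 21 libraries with no replicate block called 3222 higher. The 6 compared libraries alone, with the block, gave 8631 calls, 3868 higher and 4763 lower. The 12 obese libraries with no replicate block gave 9211 calls; beside the fibroblast and mast cell lists it changed the calls of Mgl2, C1ra, Uqcrfs1 and Flt1 among named genes. Leaving out libraries gave 7761 to 10048 calls, 3362 to 4555 higher and 4399 to 5556 lower, with the fewest without number 3.

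The difference between diets gave 995 calls in the main model, 1829 with DESeq2, 1701 with no filter on low counts, 1833 with the title number within diet as replicate block, 301 from the 12 libraries of the 4 groups alone, and 440 to 2527 with 1 library left out. More genes were positive than negative with no filter (893 and 808) and without lean monocyte-derived library 2 (1384 and 1143), against 437 and 558. The block by title is doubtful for lean libraries: deviations of equal titles correlated at -0.08 to 0.17 between the lean groups compared, and the numbers of the lean columns do not all follow the titles. The cause was not tested. Depth limits the ratios of Klrb1b, Klri1, Klrd1 and Il12b, which rest on 3 to 6 counts in MHCII-low cells. H2-Oa, whose level there was also very low, has the same limit and was given no interval.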
